A study of Mus musculus with 16 samples.

Results

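Type 1 conventional dendritic cells (cDC1) of the inguinal lymph node were compared between the node that drains a tumour and the node that does not, in mice with 1 intact copy of Wdfy4. The samples were chosen by their labels, Het draining 1 to 4 and Het non-draining 1 to 4, which gave 8 of the 16 arrays of the series. The other 8 arrays hold the same nodes from mice labelled KO for WDFY4, and enter here for the estimate of spread and for the test of whether a node difference was unlike in Het and KO cells. All mice were of strain C57BL/6 and had received regressor tumours, a kind of tumour that the immune system later clears, in the back flank 6 days before the cells were sorted. Both nodes were digested with collagenase B and DNase I before the sort. The non-draining node therefore came from tumour-bearing mice too. Mice without tumours and mice with both Wdfy4 copies were not analysed here. The labels describe the draining cells as activated and the non-draining cells as unactivated. The labels used here state neither the age of the mice nor the deleted part of the gene, and do not tie the arrays to single animals. The p-values therefore describe spread among these arrays alone, and that spread may be technical.

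cDC1 take up dead cells and show antigens from them to CD8 T cells on MHC class I. In a lymph node they occur as a resident population and as migratory cells that carry antigen from the skin. On activation, dendritic cells raise the chemokine receptor CCR7 and costimulatory molecules such as CD40, CD80 and CD86, and interferon from other immune cells induces a further set of genes that includes the T cell attracting chemokines CXCL9 and CXCL10. Resident cDC1 descend from dividing precursors, and a fraction of them still cycles in the node.

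The arrays were Affymetrix Mouse Gene 1.0 ST, and values are linear intensities after RMA, a procedure that gives all arrays a common distribution. Array medians ran from 38.6 to 40.8 in intensity over the 16 arrays, so a gene near 40 is at the middle of all probe sets and may be close to background. Differences below are draining minus non-draining on the scale log2(intensity + 1), with the standard error from limma after ±, over 4 arrays per group. This scale understates differences of dim genes.

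The label cDC1 was checked against 8 markers. Xcr1, the chemokine receptor that marks cDC1, gave intensities of 2378, 2396, 1886 and 1645 in draining arrays 1 to 4 and 2054, 2252, 1360 and 1240 in the non-draining arrays. Irf8, the transcription factor that cDC1 need, lay between 2703 and 4013, and the dead cell receptor gene Clec9a between 1031 and 1498. Batf3, Cadm1, Tlr3, Cd8a and Itgae were also well above the array medians in all 8 arrays, with the lowest value at 155 for Itgae. None of the 8 separated the nodes: the differences ran from -0.06 ± 0.21 for Batf3 to 0.38 ± 0.33 for Tlr3. Over 26 measured genes of cDC1 identity, 17 were higher in the draining node, with a median of 0.08. That median was 0.00 in arrays 1 and 2 and 0.15 in arrays 3 and 4. Wdfy4 itself, of which these cells carry 1 intact copy, gave 3150, 3450, 2766 and 2463 in the draining against 3332, 3222, 2278 and 2386 in the non-draining arrays, a difference of 0.09 ± 0.18.

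Among 19938 genes, limma called none at an adjusted p under 0.05 (0% called), and the smallest adjusted p was 0.794. At an unadjusted p under 0.05, 385 genes were higher in the draining node (1.93%) and 270 lower (1.35%), together 3.29%. Of 13767 probe sets with no symbol or several, 3.74% were at such a p and none was called. With the replicate number as a block in the 8 Het arrays these counts were 654 and 534, and still 0 passed after adjustment. The higher count was 578 without draining array 3. In 279 genes (1.4%) every draining array lay above every non-draining array, and in 199 genes (0.998%) every draining array lay below, together 2.4%. With independent arrays and no node difference, a share of 0.0286 would be without overlap and 0.05 at such a p. Neither count was above that level. The differences of 90% of all genes fell between -0.21 and 0.22, and 105 genes differed by more than 0.5 in either direction. Genes named below are therefore those of smallest p or members of gene lists, and none of them passed.

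Of the genes with a mean log2 intensity of at least 6 and arrays that did not overlap, the 10 of smallest p on the higher side held 1 member of the mitosis list and 1 of the DNA replication list described below. They were Tacc3, which stabilises the mitotic spindle, Cdc25a, the phosphatase that activates cyclin-dependent kinases, Top2a, the topoisomerase that untangles DNA, Prim1, the primase subunit that starts DNA strands, Cenpm, a centromere protein, Tpst1, an enzyme that adds sulfate to tyrosines of secreted and membrane proteins, Sdad1, a ribosome assembly gene, Gpr33, an orphan receptor related to chemoattractant receptors, Arhgap11a, and Calu, a calcium-binding protein of the secretory pathway. Their differences ran from 0.36 ± 0.10 for Cenpm to 0.73 ± 0.17 for Gpr33.

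Gpr33 gave intensities of 420, 700, 465 and 532 in the draining arrays and 321, 348, 325 and 261 in the non-draining arrays. Its same-numbered differences were 0.39, 1.01, 0.51 and 1.02, larger in pairs 2 and 4 than in pairs 1 and 3. Tpst1 gave 95.9, 101, 87.3 and 79.2 against 60.6, 69.6, 68.0 and 64.6, a difference of 0.46 ± 0.09 (limma, adjusted p = 0.794), among the smallest of all genes. Its range was narrow within each node, although its level was not far above the array medians. Sdad1 gave 147, 180, 157 and 143 against 96.7, 108, 106 and 103, a difference of 0.59 ± 0.14.

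**Figure D1:**
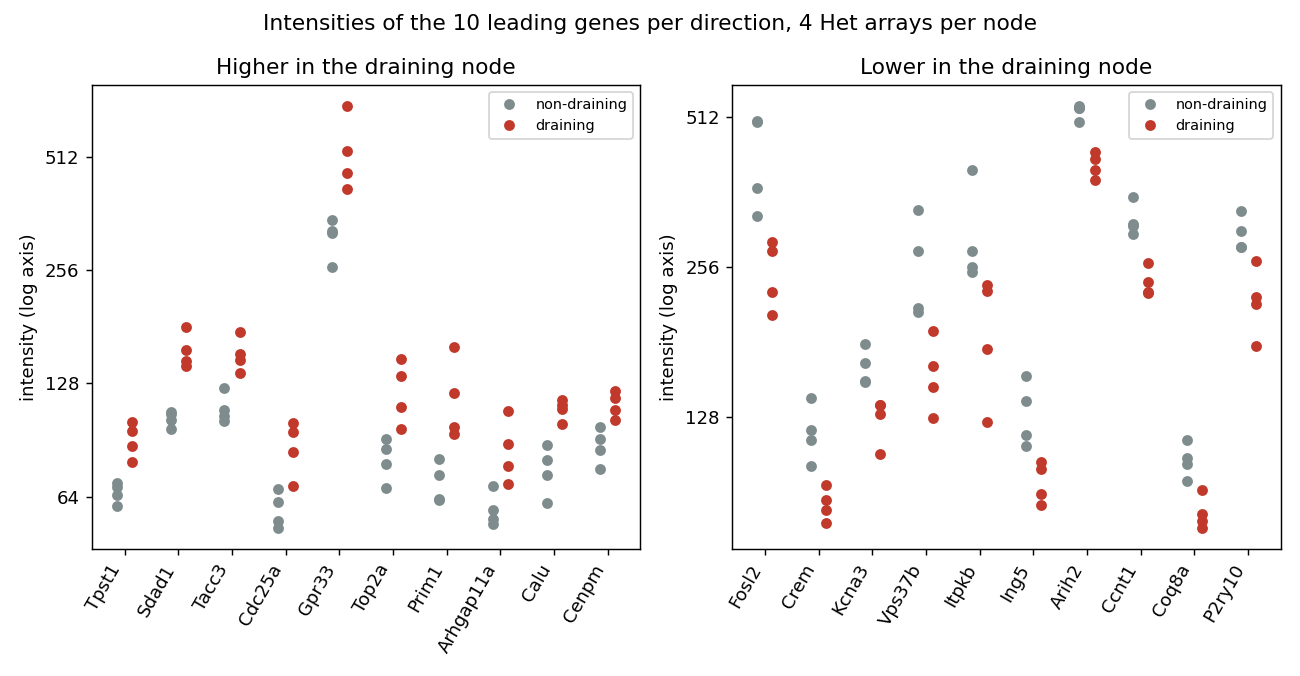
Intensities (log axis) of the 10 leading genes per direction in the 4 draining (red) and 4 non-draining (grey) Het arrays, 1 point per array. The points of the 2 nodes do not overlap in any of these genes, since that was part of the rule that chose them; Gpr33 reaches 700 in a draining array against at most 348 in the non-draining arrays.

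Genes of the cell cycle stood higher together in the draining node. Of 25 measured mitosis genes all 25 were higher, with a median of 0.38 beside a median of 0.01 over all genes, where 52.8% were higher. Of these 25, 12 were at an unadjusted p under 0.05, 6 did not overlap between the nodes and 14 were higher in all 4 same-numbered pairs, which holds for 7.45% of all genes. Of 26 measured DNA replication genes all 26 were higher, with a median of 0.29, 10 at an unadjusted p under 0.05 and 6 without overlap. Over all genes, 1.93% were higher at such a p and 1.4% were higher without overlap. No member of either list passed after adjustment over all genes in limma. In bulk samples such as these, a larger share of dividing cells and more of these transcripts per cell cannot be told apart.

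CHR (TTTGAA) and CCAAT are known as elements of genes expressed in mitosis. E2F sites (here TTTCCCGC or TTTGGCGC) are known as elements of genes expressed in DNA synthesis. Top2a is printed as the mitosis gene of smallest p whose window held CHR, and Mcm6 as the replication gene of smallest p with E2F. Their matches thus follow from that choice. CHR was in 8 of 21 mitosis genes with windows, and E2F in 5 of 23 replication genes. Both strands were searched in the 250 bases before each start that RefSeq gives in GRCm38.p6, and the runs are printed 5′ to 3′ on the strand of the gene. In the Top2a promoter (chr11:99024190-99024439, minus strand) capitals mark CHR and CCAAT on either strand, and in the Mcm6 promoter (chr1:128359706-128359955, minus strand) they mark the E2F letters.
Top2a: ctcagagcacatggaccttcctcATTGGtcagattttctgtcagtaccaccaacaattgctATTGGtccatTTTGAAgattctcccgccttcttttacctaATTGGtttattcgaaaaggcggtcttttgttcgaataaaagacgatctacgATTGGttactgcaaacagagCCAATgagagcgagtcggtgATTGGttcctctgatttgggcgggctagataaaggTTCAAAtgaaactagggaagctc
Mcm6: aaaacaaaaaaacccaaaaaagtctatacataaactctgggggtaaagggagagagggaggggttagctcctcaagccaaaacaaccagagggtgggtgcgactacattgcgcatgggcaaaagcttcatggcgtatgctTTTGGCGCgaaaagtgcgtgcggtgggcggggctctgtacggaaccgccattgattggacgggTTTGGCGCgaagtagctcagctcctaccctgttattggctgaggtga
The Top2a window holds CHR letters on both strands and CCAAT letters 6 times. The Mcm6 window holds TTTGGCGC 2 times, with first bases 110 and 47 bases before the start. Promoter windows were found for 21 of the 25 mitosis genes, and CCAAT was in 77.3% of their 22 windows against 33.8% of 32851 windows of all genes. The same letters were in 57.1% of the replication windows and 84.2% of the windows of the sterol synthesis genes described below. CHR letters were in 36.4% against 16%. Of the 28 windows of 23 replication genes, 17.9% held the E2F letters against 1.3% of all windows. A match is a description of the letters in these windows.

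In mitosis, Top2a gave 149, 134, 111 and 97.0 in the draining arrays and 85.7, 67.6, 91.0 and 78.0 in the non-draining arrays, a difference of 0.59 ± 0.15. Cdk1, the kinase that drives entry into mitosis, gave 240, 255, 231 and 191 against 170, 154, 143 and 153, a difference of 0.56 ± 0.15. In both genes the lowest draining array, number 4, still lay above the highest non-draining array. Bub1, a kinase of the spindle checkpoint, gave 52.4, 40.6, 49.6 and 35.8 against 32.2, 20.7, 27.5 and 30.1, close to the array medians, with a difference of 0.67 ± 0.15. Cdca8 (0.69 ± 0.19), a subunit of the chromosomal passenger complex, Ccna2 (0.75 ± 0.24), a cyclin of S phase and mitosis, and Cdc20 (0.37 ± 0.14), an activator of the anaphase-promoting complex, also did not overlap. Plk1, a kinase of centrosomes and spindle, gave 201, 221, 130 and 114 against 140, 104, 78.7 and 72.9, a difference of 0.74 ± 0.21. Its nodes overlapped over all arrays, but each draining array was above the non-draining array of the same number, by 0.53, 1.07, 0.72 and 0.64. Mki67, the proliferation marker Ki-67, gave 955, 627, 441 and 594 against 611, 424, 367 and 278, with the same sign in all 4 pairs and a difference of 0.64 ± 0.28.

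In DNA replication, Prim1 gave 94.0, 160, 121 and 98.0 in the draining arrays and 80.6, 62.9, 63.2 and 72.9 in the non-draining arrays, a difference of 0.72 ± 0.19. Mcm6, a subunit of the replicative helicase, gave 235, 327, 232 and 207 against 179, 148, 176 and 203, a difference of 0.49 ± 0.14. In pair 4 the 2 nodes were almost level for Mcm6 (0.03), while pair 2 differed by 1.14. Chaf1b, a chaperone that places histones on new DNA, differed by 0.51 ± 0.14, and Lig1, the ligase that joins Okazaki fragments, by 0.31 ± 0.11, both without overlap. Rrm2, a subunit of ribonucleotide reductase, differed by 0.70 ± 0.20 with overlapping nodes. Pcna, the sliding clamp of DNA polymerases, differed by 0.13 ± 0.10, with 2206, 2087, 2094 and 1686 against 1951, 1867, 1870 and 1685. The members thus ran from 0.03 to 0.72 in difference.

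Averaged over its 25 genes, the mitosis list had a mean log2 level of 6.67, 6.72, 6.43 and 6.27 in the draining arrays and 6.34, 6.07, 6.12 and 5.90 in the non-draining arrays. Each draining array was above its same-numbered partner, while the whole range of the nodes overlapped because both arrays numbered 1 were high for their node and both numbered 4 low. The replication list had means of 7.20, 7.32, 7.14 and 6.86 against 6.89, 6.67, 6.84 and 6.81, again higher in each pair but by little in pair 4. Its median difference was 0.51 in arrays 1 and 2 and 0.17 in arrays 3 and 4. The mitosis median was 0.51 and 0.35 in these sets, and between 0.28 and 0.54 when each Het array was left out in turn. Histone genes, most of which are expressed in S phase, were higher for 11 of 15 measured members with a median of 0.21, or 0.13 without non-draining array 1. H3c4 gave 71.1, 48.0, 67.8 and 74.1 against 33.1, 34.5, 38.7 and 43.8, a difference of 0.77 ± 0.15 (limma, adjusted p = 0.794). H2bc3 differed by 0.54 ± 0.18 and H4c3 by 0.40 ± 0.14, also without overlap. Histone genes of a class are near-identical copies that share probes, so single members are uncertain.

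**Figure D2:**
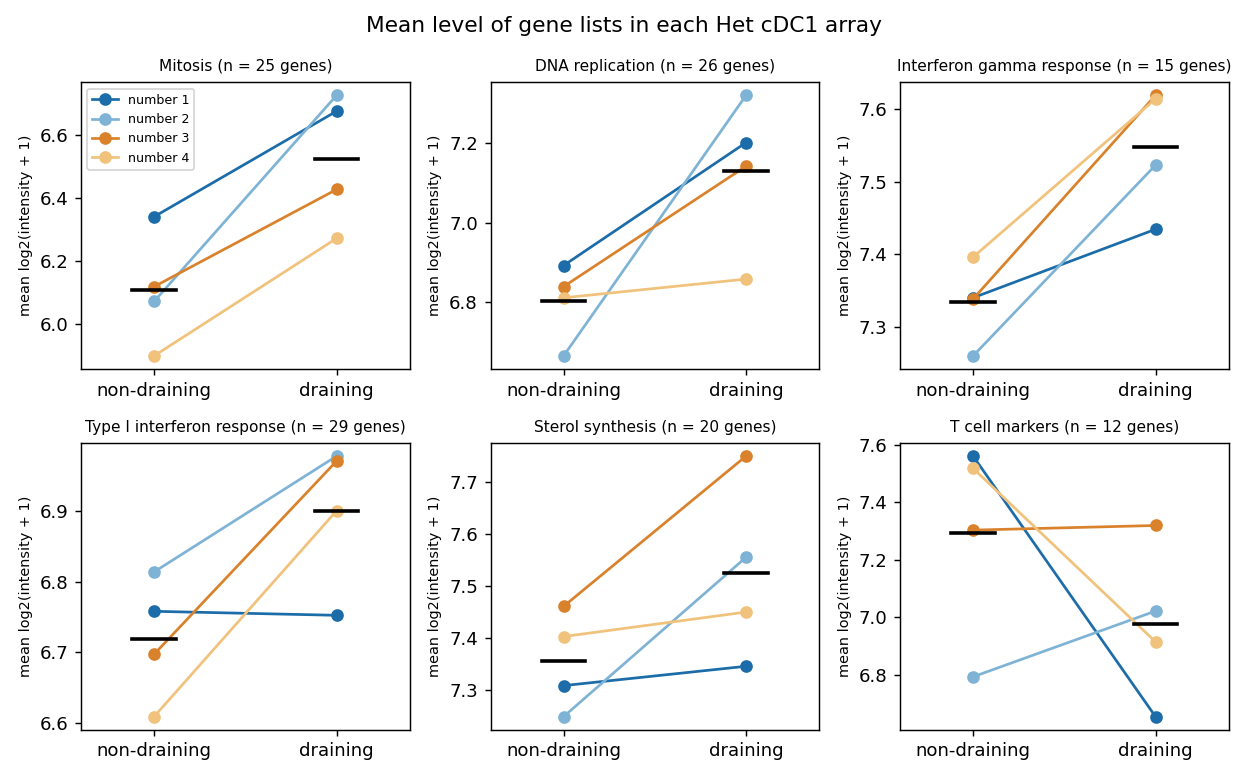
Mean log2(intensity + 1) of 6 gene lists in each Het array, with lines that join draining and non-draining arrays of the same number and black bars for the group means; each panel has its own axis. Mitosis, replication, interferon gamma and sterol genes were higher in the draining array of all 4 pairs, whereas T cell markers were lower in pairs 1 and 4 and higher in pairs 2 and 3.

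Interferon-induced genes were also mostly higher in the draining node. Of 29 measured type I interferon genes 24 were higher, with a median of 0.17, 3 at an unadjusted p under 0.05 and 4 without overlap, beside 1.93% and 1.4% of all genes on the higher side. Of 15 genes of the interferon gamma list 12 were higher, with a median of 0.14, 3 at an unadjusted p under 0.05 and 2 without overlap. The mean level of the type I list was 6.75, 6.98, 6.97 and 6.90 in the draining against 6.76, 6.81, 6.70 and 6.61 in the non-draining arrays, where the nodes overlapped and pair 1 was level. The mean level of the interferon gamma list was 7.43, 7.52, 7.62 and 7.61 in the draining against 7.34, 7.26, 7.34 and 7.40 in the non-draining arrays, with no overlap between the nodes. Its median was 0.22 without draining array 1 and 0.06 without draining array 4. The type I median was 0.09 in arrays 1 and 2 and 0.26 in arrays 3 and 4, and 0.11 without non-draining array 4.

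Interferon-induced promoters are known for the interferon-stimulated response element (ISRE, here GAAA, then 2 bases of any kind, then GAAA again, on either strand, in capitals). Stat2, which carries the interferon signal to the nucleus, is printed as the type I gene of smallest p whose window held these letters. Cxcl10 was chosen in the same way from the interferon gamma list, so both matches follow from the choice. The windows are chr10:128270248-128270497 (plus strand) for Stat2 and chr5:92348890-92349139 (minus strand) for Cxcl10, again the 250 bases before the start in GRCm38.p6.
Stat2: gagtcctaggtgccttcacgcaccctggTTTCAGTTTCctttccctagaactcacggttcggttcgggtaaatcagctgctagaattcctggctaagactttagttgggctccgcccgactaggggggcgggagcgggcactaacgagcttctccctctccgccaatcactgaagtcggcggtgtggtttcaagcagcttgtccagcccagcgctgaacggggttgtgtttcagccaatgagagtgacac
Cxcl10: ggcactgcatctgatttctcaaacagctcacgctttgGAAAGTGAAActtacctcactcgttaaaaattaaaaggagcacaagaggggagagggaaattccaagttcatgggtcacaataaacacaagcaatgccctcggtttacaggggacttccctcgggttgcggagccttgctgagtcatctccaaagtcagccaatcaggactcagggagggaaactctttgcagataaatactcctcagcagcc
The letters begin 222 bases before the start in Stat2 and 213 before it in Cxcl10. They were in 30.8% of 26 windows of 21 type I genes and in 54.5% of 11 windows of 9 interferon gamma genes, against 2.98% of the windows of all genes.

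Cxcl10, a chemokine that draws activated T cells, gave 133, 143, 115 and 97.3 in the draining arrays and 111, 74.2, 69.0 and 84.0 in the non-draining arrays, a difference of 0.53 ± 0.17. Cxcl9, a chemokine for the same receptor, gave 1856, 2333, 1780 and 1506 against 1720, 1659, 1192 and 1068, a difference of 0.42 ± 0.17. Both were higher in every same-numbered pair, with overlapping nodes. Iigp1, a GTPase that acts on vacuoles of pathogens, gave 51.3, 55.2, 46.7 and 85.0 against 30.9, 41.6, 32.6 and 30.4, a difference of 0.77 ± 0.27 without overlap. Irgm1, a regulator of the same GTPase family, differed by 0.26 ± 0.13, also without overlap. Of the type I list, Eif2ak2, the RNA-sensing kinase PKR, gave 46.7, 84.3, 51.5 and 51.9 against 38.9, 38.1, 43.6 and 41.2, a difference of 0.49 ± 0.16. Draining array 2 was far above the other draining arrays for Eif2ak2, and the difference without it was 0.30. The nucleic acid sensor Zbp1 (0.32 ± 0.15), Xaf1 (0.23 ± 0.11) and the RNA sensor Ifih1 (0.21 ± 0.14) also did not overlap. Stat2 gave 306, 390, 418 and 341 against 308, 331, 247 and 269, a difference of 0.33 ± 0.15 that came from pairs 2, 3 and 4. Mx1, an antiviral GTPase, stood at -0.21 ± 0.25.

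Genes of activated dendritic cells did not separate the nodes. Of 34 measured maturation genes 11 were higher and 23 lower, with a median of -0.06. None was at an unadjusted p under 0.05 and none was without overlap, beside 3.29% and 2.4% of all genes. At such shares a list of this size can hold none, so these counts alone say little about maturation genes. Ccr7, the receptor that guides dendritic cells to the node, gave 3354, 4409, 5054 and 5298 in the draining arrays and 4680, 4308, 4951 and 5731 in the non-draining arrays. Its difference was -0.13 with a 95% interval from -0.45 to 0.18. Cd40 differed by 0.00 (95% interval -0.47 to 0.48) and Cd86 by 0.07 (-0.23 to 0.38). Cd80 stood at -0.29 ± 0.23, Cd83, a surface marker of mature dendritic cells, at -0.22 ± 0.13, and Il12b, a subunit of the cytokine interleukin 12, at -0.22 (95% interval -0.57 to 0.14). For 14 of the 34 genes the 95% interval lay within 0.5 of 0 on both sides, and for the other 20 it reached beyond 0.5 on at least 1 side. The list median was 0.01 without draining array 2, -0.13 without draining array 3 and 0.00 without draining array 1 or non-draining array 4.

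Fscn1, an actin-bundling gene of mature dendritic cells, gave 4332, 4326, 6004 and 6107 against 5528, 4158, 5971 and 5984, high in both nodes. Arrays 3 and 4 were brighter than arrays 1 and 2 in either node, and the nodes themselves overlapped. Both ligands of the inhibitory receptor PD-1 lay above 0. Pdcd1lg2 (PD-L2) gave 47.7, 41.4, 115 and 101 against 60.4, 40.1, 48.5 and 46.1, a difference of 0.52 ± 0.29 that came from pairs 3 and 4. Cd274 (PD-L1), which interferon gamma is known to induce, gave 216, 322, 328 and 316 against 246, 207, 239 and 242, a difference of 0.32 ± 0.17, with draining array 1 below the other draining arrays. Ramp3, a receptor accessory protein, lay farthest below 0, at -0.59 ± 0.29.

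**Figure D3:**
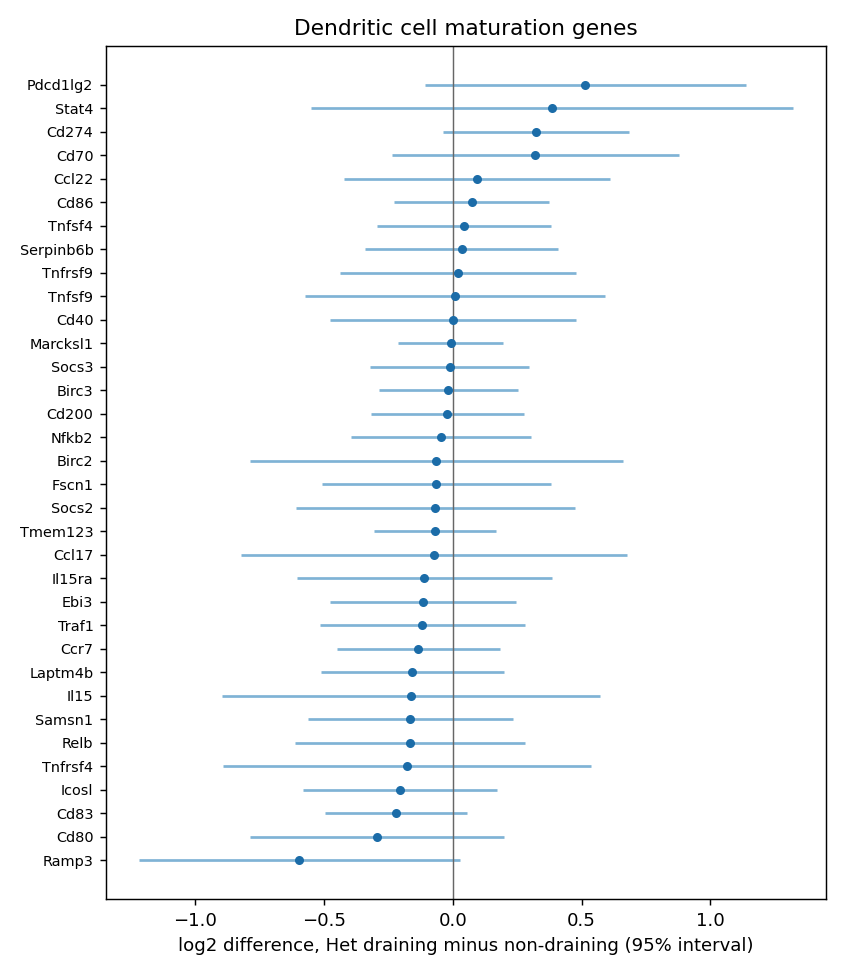
Difference between draining and non-draining Het arrays (points) with 95% intervals from limma (bars) for 34 maturation genes, ordered by the difference. Every interval includes 0, and the points run from -0.59 for Ramp3 to 0.52 for Pdcd1lg2.

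Antigen presentation and signalling lists were near the middle of all genes as well. Costimulation and checkpoint genes had a median of 0.03 (11 of 18 higher), MHC class I processing genes 0.03 (9 of 17), MHC class II genes -0.04 (3 of 12), cross-presentation and vesicle traffic genes -0.04 (9 of 22), genes of NF-kappaB feedback -0.04 (5 of 14) and T cell cytokines -0.05 (5 of 16). None of these lists had a member at an unadjusted p under 0.05 or without overlap, beside 3.29% and 2.4% of all genes. Lists this short can hold none at such shares. H2-Aa, a chain of MHC class II, gave 7051, 7364, 6707 and 7017 against 7668, 7864, 7227 and 6823, a difference of -0.07 ± 0.08. Immediate early genes, induced within minutes by signalling or by digestion of tissue, had a median of -0.04 with 10 of 26 higher. Fosl2, described below, was farthest from 0 at -0.75. It was the only member without overlap, beside 2.4% of all genes. Jun, a subunit of the transcription factor AP-1, stood at 0.40 ± 0.14, while the nuclear receptor genes Nr4a3 (-0.33 ± 0.16), Nr4a1 (-0.30 ± 0.17) and Nr4a2 (-0.26 ± 0.19) stood lower. Heat shock genes had a median of 0.22 (9 of 13 higher), or 0.09 without non-draining array 1. The cochaperone gene Stip1 gave 478, 535, 571 and 468 against 443, 398, 409 and 399, a difference of 0.31 ± 0.09 without overlap.

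**Figure D4:**
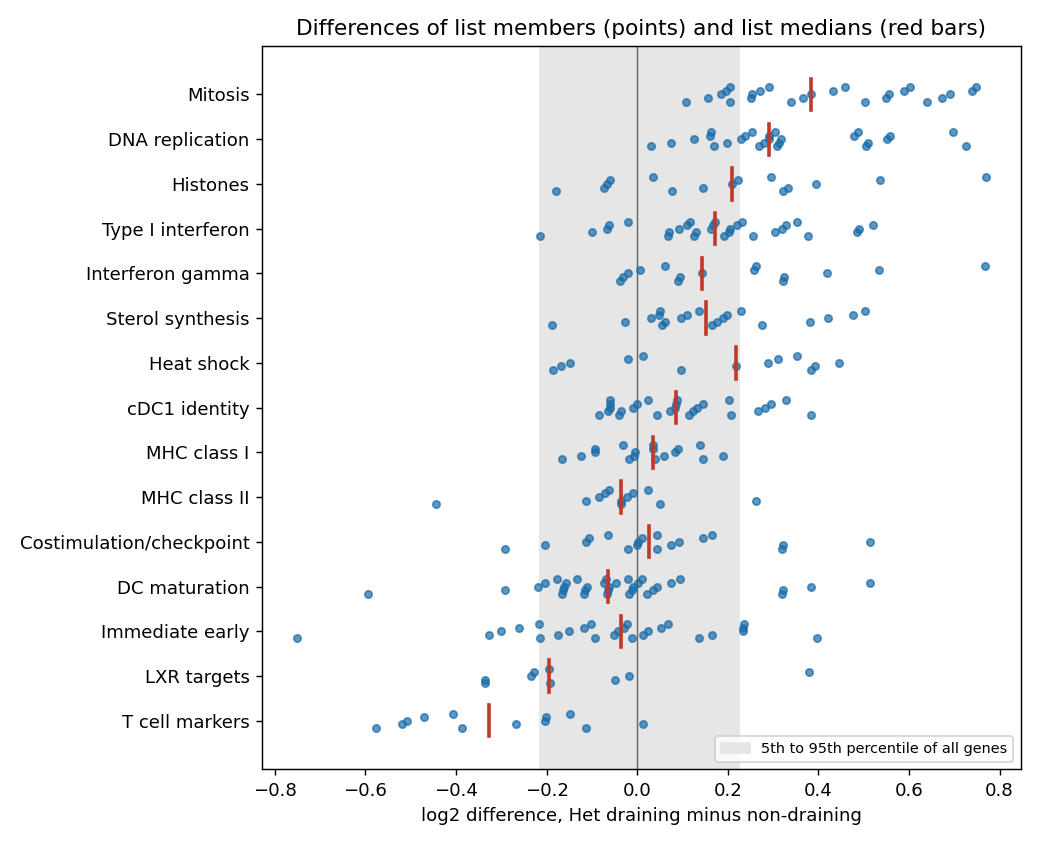
Log2 difference of each measured member (points) of 15 gene lists, with the list median (red bar) and the range that holds the middle 90% of all genes (grey, -0.21 to 0.22). Mitosis (median 0.38) and replication genes (0.29) lie to the right of 0, maturation and MHC lists lie around 0, and T cell markers (-0.33) lie to the left.

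Among innate receptors, Tlr13, which senses bacterial ribosomal RNA, gave 271, 297, 207 and 257 in the draining arrays and 148, 174, 153 and 140 in the non-draining arrays, a difference of 0.73 ± 0.22 without overlap. Cd14, a coreceptor for lipopolysaccharide that macrophages also express, gave 127, 184, 107 and 122 against 216, 207, 222 and 152, a difference of -0.57 ± 0.20. The lectin genes Clec7a (-0.38 ± 0.14) and Clec4b1 (-0.70 ± 0.28) were lower too, the latter dim at 12.1 to 34.7. Lyz2, the lysozyme gene of myeloid cells, stood at -0.53 ± 0.20. Macrophage and monocyte markers as a whole had a median of -0.02 (5 of 13 higher), or -0.16 over members with a mean log2 of at least 6, with summed intensities of 1479 to 1855 in the draining against 1693 to 2223 in the non-draining arrays. Markers of cDC2, the other conventional subset, had a median of -0.18 (8 of 10 lower), or -0.05 without draining array 1, with sums of 704 to 965 and 837 to 1017. The part of either cell type in these receptor values was not tested.

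Sterol genes and targets of the liver X receptor (LXR), a nuclear receptor that senses oxysterols, stood on opposite sides in the pooled comparison, though not in each pair. Of 20 measured sterol synthesis genes 18 were higher, with a median of 0.15, 3 at an unadjusted p under 0.05 (1.93% of all genes) and 2 without overlap (1.4% of all genes). Cyp51, the lanosterol demethylase, gave 99.5, 116, 126 and 113 in the draining arrays and 73.4, 79.7, 99.6 and 86.7 in the non-draining arrays, a difference of 0.42 ± 0.11. Nsdhl gave 417, 376, 350 and 348 against 299, 264, 287 and 290 (0.38 ± 0.14), and Msmo1 gave 710, 666, 585 and 564 against 526, 320, 464 and 494 (0.50 ± 0.21). These 3 enzymes act between lanosterol and cholesterol, and each was higher in all 4 pairs. They were the list members of smallest p. Of other enzymes in the list, Tm7sf2 stood at -0.19, Dhcr7 at 0.03, Hsd17b7 at 0.05 and Ebp at 0.10. The list median was 0.24 without draining array 1 and 0.04 without draining array 3. Of 9 LXR targets 8 were lower, with a median of -0.19, which was -0.35 in arrays 1 and 2 and -0.04 in arrays 3 and 4. In pairs 1 to 4 the LXR median was -0.38, -0.24, -0.08 and 0.00, and the sterol median 0.02, 0.44, 0.29 and 0.12. Mylip, the ubiquitin ligase that degrades the LDL receptor, gave 1028, 946, 1060 and 1016 against 1340, 1267, 1342 and 1170, a difference of -0.34 ± 0.11. Abca1, the cholesterol exporter, differed by -0.23 ± 0.08, also without overlap, while the desaturase gene Scd2 stood at 0.38 ± 0.16.

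The 10 leading genes on the lower side belonged to no single list. Fosl2, an AP-1 subunit, gave 275, 287, 227 and 205 in the draining arrays and 502, 499, 368 and 324 in the non-draining arrays, a difference of -0.75 ± 0.19. The same-numbered differences of Fosl2 were -0.86, -0.79, -0.69 and -0.66, close to each other although arrays 1 and 2 of either node were brighter than arrays 3 and 4. Crem, a transcription factor of the cyclic AMP pathway, gave 93.4, 78.2, 86.9 and 83.0 against 120, 139, 115 and 102, a difference of -0.47 ± 0.13. Arih2, a ubiquitin ligase, differed by -0.36 ± 0.11, Ccnt1, the cyclin of the elongation factor P-TEFb, by -0.41 ± 0.13, Ing5, a chromatin reader, by -0.45 ± 0.14, and Coq8a, a gene of coenzyme Q synthesis, by -0.34 ± 0.11.

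The other 4 are known in lymphocytes as well: Kcna3, a potassium channel gene (-0.34 ± 0.10), P2ry10, a lysophospholipid receptor gene (-0.45 ± 0.14), Vps37b, an ESCRT gene (-0.70 ± 0.20), and Itpkb, an inositol phosphate kinase gene (-0.64 ± 0.19). T cell markers were mostly lower as well in the pooled comparison, with 11 of 12 measured markers lower and a median of -0.33, or -0.15 without draining array 1. Cd5, a T cell surface receptor, gave 129, 209, 234 and 139 in the draining arrays and 340, 169, 232 and 280 in the non-draining arrays, a difference of -0.52 ± 0.27. The summed intensity of the T cell list was 1536 to 2555 in the draining against 1603 to 2918 in the non-draining arrays. By pair, the T cell median was -0.88, 0.28, 0.05 and -0.46. Vps37b gave 127, 162, 190 and 147 against 333, 208, 212 and 275, with pair differences of -1.38, -0.36, -0.16 and -0.90. Itpkb gave 125, 175, 235 and 229 against 401, 255, 250 and 276, with pair differences of -1.68, -0.54, -0.09 and -0.27. The part of T cell RNA in the difference of any of the lower genes was not tested.

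Among the marker lists of other cells, B cell markers had a median of -0.03 (5 of 11 higher) and summed to 602 to 1035 in the draining against 607 to 1058 in the non-draining arrays. The B cell median went from -0.48 in arrays 1 and 2 to 0.45 in arrays 3 and 4. Their mean log2 level was highest in draining array 4 (6.37) and non-draining array 2 (6.35), and lay between 5.61 and 5.78 in the other arrays. Medians were -0.02 for NK and cytotoxic cells (-0.26 over members with a mean log2 of at least 6), 0.00 for plasma cells, 0.06 for plasmacytoid dendritic cells, -0.06 for Langerhans and migratory dendritic cells, -0.04 for neutrophils, 0.03 for lymph node stroma and -0.01 for erythroid cells. None of these 8 lists had a member at an unadjusted p under 0.05, beside 3.29% of all genes. Lists this short can hold none at that share, so the count says little about the content of other cells. The mitosis genes are expressed by any dividing cell, and the part of dividing lymphocytes in their difference was not tested.

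The KO arrays give the same node comparison in cells without intact Wdfy4. The KO and Het differences share no array, but both take their spread from the same fit of all 16 arrays. There 2.11% of genes were at an unadjusted p under 0.05 and none was called after adjustment. The mitosis list had a KO median of 0.00, with a mean level of 6.23 ± 0.15 (SD, n = 4) in the draining against 6.23 ± 0.09 in the non-draining arrays. The replication list had a KO median of 0.05 (19 of 26 higher) and the histone list 0.03 (11 of 15 higher). The type I interferon list had a KO median of -0.04, the interferon gamma list -0.13 and the maturation list -0.03. T cell markers had a KO median of 0.25 with all 12 higher, beside -0.33 in Het cells, and a median interaction of -0.60. Of the 10 leading genes on the higher side in Het cells, 4 were higher and 6 lower in KO cells. The difference between the genotypes was tested by the interaction term of the same limma fit, in which no gene passed (smallest adjusted p = 1.00) and 463 genes (2.32%) were at an unadjusted p under 0.05. That count was 775 with genotype and number as a random block. Of 25 mitosis genes 24 had a larger node difference in Het than in KO cells, with a median interaction of 0.41, and 9 of them were at an unadjusted p under 0.05. The list was written with earlier results of these data known, and the Het difference is part of the interaction. A list high in Het and near 0.00 in KO cells thus has a positive interaction, which restates the Het difference. The same limit holds for genes named by their p in the Het comparison. Plk1 had an interaction of 1.03 ± 0.30 (unadjusted p = 0.0032, adjusted p = 1.00 in limma), and stood at 0.74 in Het and -0.30 in KO cells. Cxcl10 had an interaction of 0.93 ± 0.25 (unadjusted p = 0.0016, adjusted p = 1.00), with 0.53 in Het and -0.40 in KO cells. Rrm2 was among the members closest to each other in the genotypes, with 0.70 and 0.50. Cd14, chosen after its KO values were seen, stood at -0.57 in Het and -0.48 in KO cells. Whether the node difference of any of these genes is unlike in the genotypes was thus not resolved over all genes.

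**Figure D5:**
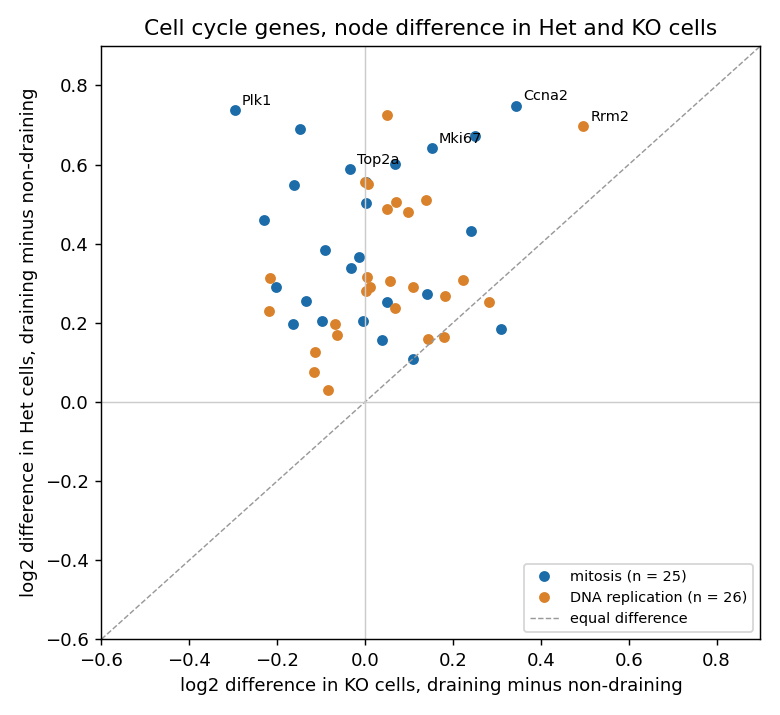
Node difference (log2, draining minus non-draining) of mitosis (blue) and DNA replication genes (orange) in Het cells against KO cells, 1 point per gene, with a dashed line of equal difference. All points lie above 0 on the Het axis. On the KO axis 12 of 25 mitosis and 19 of 26 replication genes lie above 0, with Plk1 at -0.30 and Rrm2 at 0.50.

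Genes chosen for separated Het arrays were looked up in the KO arrays. Of the 279 genes higher in every draining Het array, 169 (60.6%) had the same sign in KO cells, beside 50.7% of all genes, with a median of 0.24 in Het and 0.03 in KO cells. Of the 199 lower genes 104 (52.3%) had the same sign, beside 49.3% of all genes, with medians of -0.23 and -0.01. Of the higher genes, 4 also separated the KO arrays in that direction (1.43%, beside 0.848% of all genes), and 2 of the lower genes (1.01%, beside 0.592%). The 4 were Bub1, Lig1, the HMG-box gene Bbx and the olfactory receptor gene Olfr1257, and the 2 were 9030619P08Rik and the pseudogene Rpl14-ps1. Bbx, Olfr1257 and these 2 were chosen after their values were seen. Bub1 stood at 0.67 in Het and 0.25 in KO cells, and Lig1 at 0.31 and 0.22.

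Same-numbered arrays were compared as a description of the pairs. In 1486 genes (7.45%) all 4 differences were higher in the draining node and in 1224 (6.14%) all 4 were lower. Among the leading genes, whose nodes do not overlap by the rule that chose them, Tacc3 differed by 0.25, 0.73, 0.49 and 0.43 in pairs 1 to 4, and Cdc25a by 0.58, 0.60, 0.83 and 0.14. Mitosis genes had pair medians of 0.40, 0.63, 0.30 and 0.31, and replication genes 0.34, 0.54, 0.30 and 0.05. Pair 2 thus gave the largest cell cycle difference, and pair 4 the smallest for replication. Interferon gamma genes had pair medians of 0.09, 0.40, 0.23 and 0.19, sterol genes 0.02, 0.44, 0.29 and 0.12, and maturation genes -0.10, -0.01, -0.03 and -0.05.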

How the data were processed

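RNA of sorted cDC1 was hybridised to 1 array per sample, 16 in 4 groups of 4, grouped by the titles. The deposited table holds linear intensity values for 35556 probe sets to which the authors had applied RMA (per the submitters' processing notes). Which program ran it is not given in the sources used here. This step removes a shift of all genes together and pulls dim probe sets toward a floor. Of the probe sets, 21789 had 1 gene symbol, 1621 several and 12146 none, and 21698 gene IDs (99.6%) matched the RefSeq gene table. The brightest probe set stood for a gene, which gave 19938 genes. Another fit took the 13767 probe sets with no symbol or several, with 0 calls and 515 at an unadjusted p under 0.05.

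Values were tested as log2(intensity + 1) with limma 3.58.1 in R 4.3.3, two-sided, in 1 fit of the 4 groups with 12 residual degrees of freedom, with Benjamini-Hochberg adjustment over the 19938 genes. The median standard error was 0.12. In data simulated on these genes for the Het comparison, 100 genes were changed by 1 and 100 by 0.5. Of these, 90% and 41% were called, beside 6 false calls. The simulated arrays varied independently, whereas the real arrays deviated together. These shares therefore describe the simulated setting and are not the sensitivity of this comparison. The number of arrays limits the precision.

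The arrays of a group share numbers with the other groups. Same-numbered Het arrays deviated together, all over the correlation of 0.1 required here. Correlations of the deviations from the group means were 0.23, 0.20, 0.31 and 0.23 over all genes. Differences of same-numbered arrays are given as a description. The main fit, which gave the standard errors and p-values, had no block for the number, which entered only in alternative fits. Arrays 1 and 2 and arrays 3 and 4 also formed sets. Arrays of unlike number in a set had correlations of 0.07 to 0.38, as strong in part as same-numbered arrays, and arrays of different sets -0.35 to -0.09, so the data do not tell pairs from sets.

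The members and gene lists were chosen with earlier results of these data known. Named genes are the 10 of smallest p per direction with a mean log2 of at least 6 and no overlap between the Het nodes (predicted, small RNA, olfactory, vomeronasal and receptor segment genes left out), per list at most 4 members by smallest p, all members of lists given in detail, Wdfy4 and cDC1 markers. Lists are described by counts and medians, with no test. The alternatives were other blocks, array sets, offsets, filters, normalizations, probe set rules, spread models and leaving out each Het array. Promoter windows come from RefSeq. Python 3.11.15 with matplotlib 3.10.9 drew the figures.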

Additional observations from a re-analysis of the deposited data

Results flagged for a closer look

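Gaps within the 4 arrays of a Het node were compared with Dixon's 95% critical value for 4 samples in 250 groups of arrays for the genes and lists described. Chance puts about 1 in 20 such groups past it, and 5 were past it here. For Cd274, the PD-L1 gene, draining array 1 was low (216, the others 316 to 328), with a gap of 0.911 of the range, and non-draining array 2 was low (207, the others 239 to 246), with a gap of 0.832. For Arih2, non-draining array 1 was low (500 against 532 to 538, gap 0.848). For the mean log2 level of lysosome genes, non-draining array 1 was low at 8.86 against 8.89 in the others, a gap of 0.835 within a narrow range. For lymph node stroma markers, non-draining array 4 was high at 5.74 against 5.60 to 5.61, a gap of 0.905.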

How the results depend on the processing

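The count of genes past an adjusted p of 0.05 in limma was 0 under every alternative run, for the Het nodes and for the difference between genotypes, beside 385 higher and 270 lower genes at an unadjusted p under 0.05. With the replicate number as a block in the 8 Het arrays the unadjusted counts were 654 and 534, and with genotype and number as a random block 597 and 417. The block changed no other call. A block for arrays 1 and 2 against 3 and 4, chosen after seeing the data, gave 530 and 391. Among genes with a mean log2 of at least 6, where fewer genes are tested, they were 143 and 112, the counts without overlap 105 higher and 89 lower, and the counts with 1 sign in 4 pairs 588 and 644. Leaving out each Het array in turn gave 314 to 578 higher and 235 to 391 lower genes. Counts without overlap were then 448 to 771 and 361 to 505, with fewer arrays that could overlap. The unadjusted count for the difference between genotypes, 463, was 775 with the random block, 758 in arrays 1 and 2, 827 in arrays 3 and 4 and 161 among genes with a mean log2 of at least 6. Of the 85 genes of the text that the rule chose, 9 with small or varied differences changed sign. In arrays 1 and 2, Itgae was -0.20 and Pdcd1lg2 -0.15, and in arrays 3 and 4, Cd40 was -0.026, Clec9a 0.058 and Fscn1 0.019. When each Het array was left out in turn, Batf3 ran from -0.15 to 0.026, Ccr7 from -0.22 to 0.0045, Cd40 from -0.10 to 0.085, Cd86 from -0.0097 to 0.18, Clec9a from -0.10 to 0.078, Fscn1 from -0.19 to 0.017, Itgae from -0.051 to 0.24 and Wdfy4 from -0.0071 to 0.18. The cause was not tested. Signal over background limits genes near the array medians, such as Bub1, Iigp1 and Eif2ak2.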

Other observations

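Further gene lists of the same Het comparison had medians near the middle of all genes. Endoplasmic reticulum stress genes had a median of 0.09 (9 of 17 higher), or 0.00 when the probe sets of a gene were averaged. Creld2, a chaperone gene of that list, gave 344, 455, 363 and 230 in draining arrays 1 to 4 and 283, 251, 260 and 224 in the non-draining arrays, a difference of 0.41 ± 0.17, and Hsp90b1, its HSP90 member, 0.19 ± 0.10 without overlap. Clock genes had a median of -0.08 (11 of 15 lower). Per1, a repressor of the circadian clock, gave 347, 435, 393 and 360 against 538, 503, 408 and 447, a difference of -0.30 ± 0.14 that was lower in all 4 pairs with overlapping nodes. Lysosome genes had a median of -0.09 (16 of 24 lower), uptake receptors -0.03 (21 of 30 lower) and T cell chemokines -0.05 (11 of 16 lower). Lectin receptors had a median of -0.08 (12 of 15 lower). Of these 15, 3 were lower at an unadjusted p under 0.05 in limma, beside 1.35% of all genes. Glycolysis (-0.05), respiratory chain (-0.02), BCL2 family (0.00) and Toll-like receptor genes (0.01) had medians near 0.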
